A study of Mus musculus with 17 samples.

Results

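The stefins and cystatins are protein inhibitors of papain-type cysteine proteases such as the lysosomal cathepsins. They were taken as the rows of the count table whose symbol starts with Stfa and a digit or is Cst3, Cst7 or Cstb. The rule gave 6 genes of 10207 rows with a symbol: the stefin A genes Stfa2, Stfa2l1 and Stfa3, the stefin B gene Cstb, the cystatin C gene Cst3 and the cystatin F gene Cst7. All 6 passed the filter on low counts, which kept 7518 genes for testing.

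RNA was sequenced from myeloid cells of BALB/c mice in 3' end libraries, 11 of which could be read by gene. TAM are macrophages sorted as CD11b+ Gr- F4/80+ cells from mammary tumors that grew to about 1 cm after 100000 4T1-luc cells, a luciferase-carrying mouse mammary carcinoma line, had been placed in the fat pad (3 libraries, 1748338 to 3747929 counts). BMDM_T are CD11b+ Gr+ F4/80low cells, called monocytes in the labels, from leg bone marrow of tumor-bearing mice (4 libraries, 931278 to 1218977 counts), and BMDM_H are cells of the same marrow gate from untreated healthy mice (4 libraries, 387940 to 1286844 counts). The labels give 8 weeks of age for TAM and BMDM_T and 12 weeks for BMDM_H, so tumor and age cannot be told apart between the marrow groups, nor can tissue, gate and collagenase digestion between TAM and marrow. The labels do not name the mouse behind each replicate, and the spread on which the p-values rest may therefore be technical.

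Stefins are small proteins without a signal peptide that stay in the cytosol and nucleus, where they block cathepsins that leak from lysosomes. Cystatin C is secreted by most cells and is a strong inhibitor of cathepsins outside the cell, and it is a known product of macrophages and dendritic cells. Cystatin F is made by blood cells, can be sorted to lysosomes and there restrains cathepsin C, the activator of granule serine proteases. Mice carry a row of stefin A copies where other mammals have few, and these copies are known as abundant transcripts of developing neutrophils.

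In RNA of the marrow gate, neutrophil markers summed to far more than monocyte markers. The lists hold genes of unlike abundance, so these sums do not measure shares of cells. In the 8 marrow libraries 12 neutrophil markers summed to between 138311 and 212300 CPM (counts relative to the library total, scaled with TMM factors), and 6 monocyte markers to between 1368 and 3726 CPM. In TAM the same lists summed to between 391 and 614 CPM and between 2228 and 2785 CPM, and 8 macrophage markers to between 58388 and 72391 CPM, against 1831 to 3432 CPM in marrow. In this bulk RNA, fewer cells of a type and less RNA per cell cannot be told apart.

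The stefin A genes lie next to each other, and their start regions are shown because the copies share sequence while their counts differed between the marrow groups. In mm10 the cluster spans chromosome 16 from 36156811 to 36455392 (298.6 kb), with Stfa2l1 (36156811 to 36161953, plus strand) at one end and Stfa2 (36403992 to 36408457, minus strand) and Stfa3 (36450537 to 36455392, minus strand) at the other. Its copies Gm5483 (36184212 to 36188111, plus strand) and BC100530 (36359382 to 36367748, minus strand) were also in the table but fall outside the rule; they are given in full because their values were seen to bear on the cluster. The 100 bases before the RefSeq start (build GRCm38.p6) are given for 3 of these genes, with a TATA-like run in capitals.
Stfa3: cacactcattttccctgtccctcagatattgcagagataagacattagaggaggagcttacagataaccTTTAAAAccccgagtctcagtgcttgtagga
Stfa2l1: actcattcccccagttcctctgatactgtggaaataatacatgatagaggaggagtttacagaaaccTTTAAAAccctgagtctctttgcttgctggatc
Gm5483: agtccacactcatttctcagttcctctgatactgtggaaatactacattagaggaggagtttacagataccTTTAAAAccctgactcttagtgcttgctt

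These windows are chr16:36455393-36455492 on the minus strand for Stfa3, chr16:36156711-36156810 on the plus strand for Stfa2l1 and chr16:36184112-36184211 on the plus strand for Gm5483. The run TTTAAAA began at position -31 from the start of Stfa3, at -33 for Stfa2l1 and at -29 for both Gm5483 and Stfa2. With both strands searched, 8.1% of 32851 promoter windows of 250 bases before a start held it. The longest run around it shared by Stfa2, Stfa2l1, Stfa3 and Gm5483, ACCTTTAAAACCC, was in 8 of these windows (0.0244%), and 7 of them belonged to stefin A genes. The longer run was taken from Stfa2, Stfa2l1, Stfa3 and Gm5483, so their windows among the 7 held it by construction. TTTAAAA was chosen after the letters had been read, and a match is a description, not a binding site. Over the last 100 bases, Stfa2, Stfa2l1, Stfa3 and Gm5483 were 78% to 84% identical in pairs, against 45% to 56% when each was aligned in the same way with Cst3 or Cst7. The promoter table matched 5 of the 6 members.

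Copies this alike could exchange reads in counting. Of the 151 stretches of 50 bases in the last 200 bases of the transcript, 14 in Stfa2 were found unchanged in Stfa2l1 and the same number in the reverse direction, while Stfa3, Gm5483, Cst3, Cst7 and Cstb had 0 such stretches in any other annotated gene. In BC100530, 66 of 151 stretches occurred in other stefin A genes, so its values are uncertain. The read length and the handling of reads with several matches are not stated in the labels or notes. Cst3 (chromosome 2, 148871722 to 148875692, minus strand), Cst7 (chromosome 2, 150570415 to 150578944, plus strand) and Cstb (chromosome 10, 78425669 to 78427622, plus strand) are separate protein-coding genes, and no member overlapped another annotated gene.

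**Figure D1:**
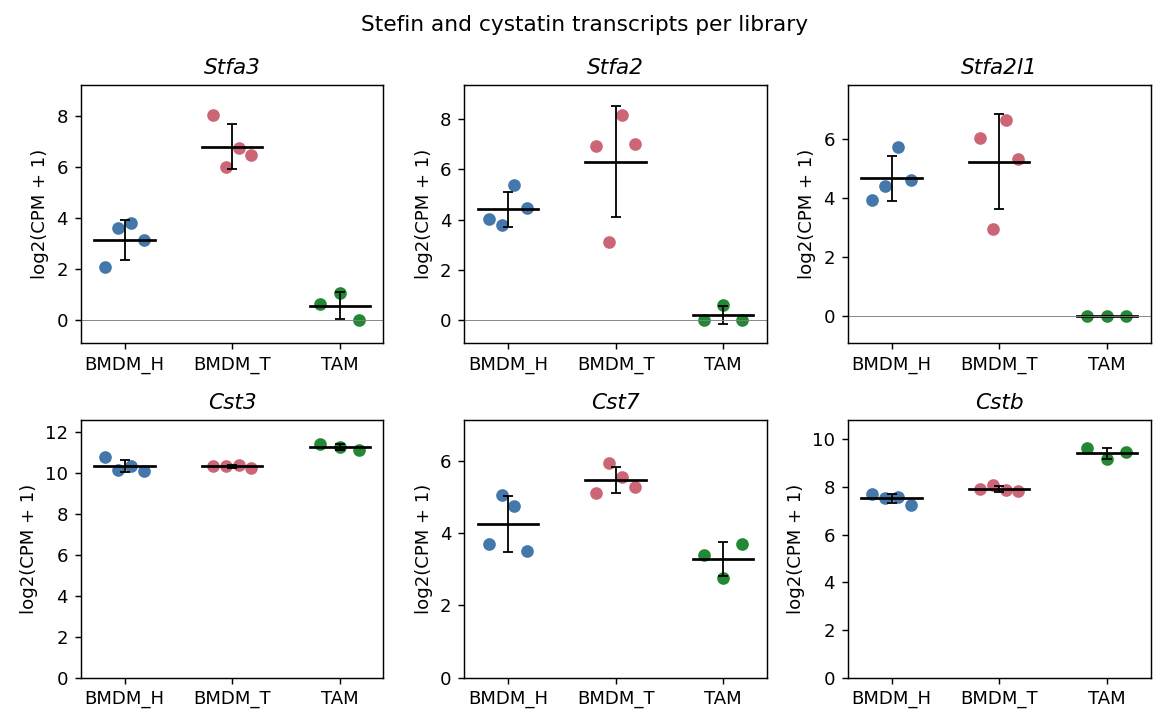
Level of each of the 6 genes in each library on a log2(CPM + 1) scale, with points for libraries, a line for the group mean and bars for the SD (n = 4, 4 and 3). The stefin A genes sit near 0 in TAM and are present in marrow, while Cst3 and Cstb are highest in TAM.

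The comparison of BMDM_T with BMDM_H asks how marrow cells of this gate differ when a tumor is present. Of the 6 genes 2 rose, Stfa3 and Stfa2, and none fell, while 4.82% of the 7518 genes passed (2.82% higher and 2.00% lower). At an unadjusted p under 0.05, 4 were higher and 0 lower with edgeR. The share of all genes at that unadjusted level was not computed, here or for the lists below. DESeq2 called Stfa3 and Cst7 higher and 0 members lower, with 253 higher and 138 lower over all genes. With limma-voom Stfa3 alone was called, with 185 higher and 118 lower over all genes. In the edgeR fit the median log2 fold change of the 6 genes was 1.045, against -0.015 over all genes tested. Cst3, Cst7, Cstb and Stfa2l1 did not pass in that fit.

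Stfa3 had 262, 63.9, 106 and 87.5 CPM in the BMDM_T libraries 1 to 4 and 3.18, 11.3, 13.0 and 7.81 CPM in the BMDM_H libraries 1 to 4. Every BMDM_T library was above every BMDM_H library, and the lowest of the former stood at 63.9 CPM against 13.0 CPM for the highest of the latter. The log2 fold change was 3.94 ± 0.48 SE (adjusted p = 2.5e-05), with a 95% interval for the fold of 7.71 to 30.6. Stfa3 entered this test through the BMDM_T libraries, where it is high, since it failed the low-count filter without them. The p-value and the interval carry this limit. With no low-count filter the log2 fold change was 3.96 (adjusted p = 2.1e-06). Stfa3 passed in each of the 19 alternative settings tried, which kept that filter apart from the fit without it. There the log2 fold change ranged from 3.36 to 4.25 and the adjusted p from 3.69e-13 to 0.00122.

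Stfa2 had 123, 7.56, 285 and 129 CPM in BMDM_T and 15.1, 12.9, 40.9 and 20.8 CPM in BMDM_H. BMDM_T replicate 2 was below all healthy libraries and the other 3 were above them, so the groups overlapped. The log2 fold change was 2.73 ± 0.62 SE (adjusted p = 0.0115), equal to 6.64-fold. The call was lost without BMDM_T replicate 3 (log2 fold change 2.08, adjusted p = 0.0532), without BMDM_H replicate 1 (0.0509) and without BMDM_H replicate 2 (0.0646), as well as with DESeq2 (0.0788) and limma-voom (0.287), and the adjusted p ran from 1.77e-05 to 0.287 over all alternatives.

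Stfa2l1, the copy at the opposite end of the cluster, had 64.6, 6.72, 98.1 and 38.8 CPM in BMDM_T and 14.3, 20.1, 52.1 and 23.4 CPM in BMDM_H. The groups overlapped, and BMDM_T replicate 2 was again the lowest of the 8 libraries. The log2 fold change of 1.00 ± 0.53 SE did not pass (adjusted p = 0.35), and its 95% interval for the fold ran from 0.921 to 4.36. Without BMDM_T replicate 2 it was 1.40 with an adjusted p = 0.0478, and over all alternatives the adjusted p ran from 0.0478 to 0.708.

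Of the neighboring copies outside the rule, BC100530 had 568, 30.3, 217 and 189 CPM in BMDM_T and 29.4, 14.5, 31.6 and 33.8 CPM in BMDM_H (log2 fold change 3.28 ± 0.57 SE, adjusted p = 0.00134). Its log2 fold change was 2.49 without BMDM_T replicate 1, its highest library, and the call was lost with limma-voom (adjusted p = 0.0503, in a range of 2.51e-06 to 0.0503). Gm5483 had 96.9, 30.3, 79.7 and 75.8 CPM in BMDM_T and 58.9, 33.8, 50.2 and 65.1 CPM in BMDM_H (0.47 ± 0.30, adjusted p = 0.453). Along the cluster, the copies that rose were thus BC100530, Stfa2 and Stfa3, all on the minus strand, and those that did not pass were Stfa2l1 and Gm5483 on the plus strand. Whether the changes of the strands differ was not tested, and the grouping was seen only after the values were known.

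**Figure D2:**
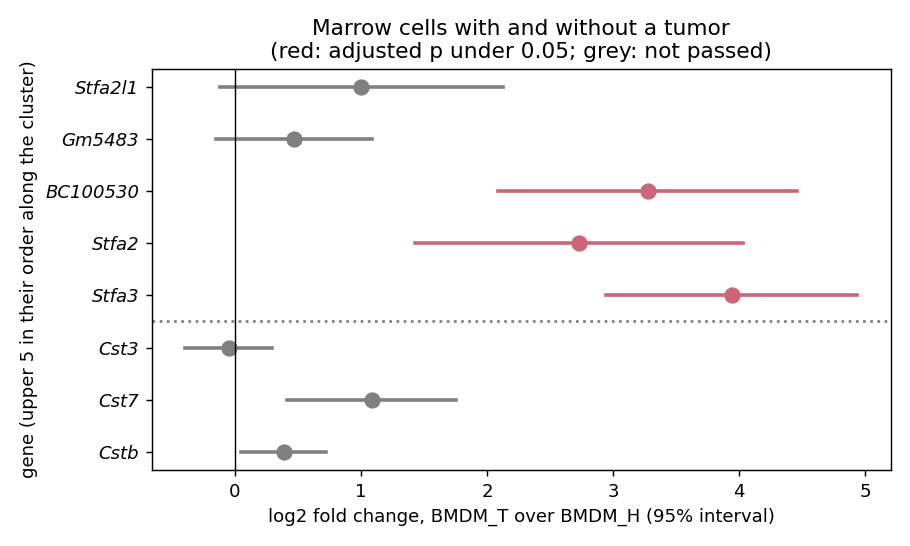
Log2 fold change of BMDM_T over BMDM_H with its 95% interval for 5 stefin A copies in their order along the cluster and, under the dotted line, for Cst3, Cst7 and Cstb. Stfa3, Stfa2 and BC100530 are drawn in red as passing an adjusted p of 0.05, and the intervals of Stfa2l1, Gm5483 and Cst3 cross 0.

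The 4 BMDM_T libraries did not share one mix of stefin A transcripts. Stfa3 made up 23.5%, 46.1%, 13.5% and 16.8% of the counts of the 5 copies in BMDM_T replicates 1 to 4, and 2.63%, 12.2%, 6.93% and 5.17% in BMDM_H. The Stfa3 share was higher in each BMDM_T library than in each BMDM_H library, though some shares rest on few counts (3 of 58 in BMDM_H replicate 4). BC100530 made up 51.0%, 21.8%, 27.6% and 36.3% in BMDM_T. Stfa2 took 36.3% in BMDM_T replicate 3 and 5.45% in replicate 2. In replicate 2 the 5 copies summed to 139 CPM, against 520 to 1114 CPM in the other 3 BMDM_T libraries and 92.5 to 188 CPM in BMDM_H. Replicate 2 was therefore within the healthy range for the sum, while its Stfa3 level of 63.9 CPM was above it.

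**Figure D3:**
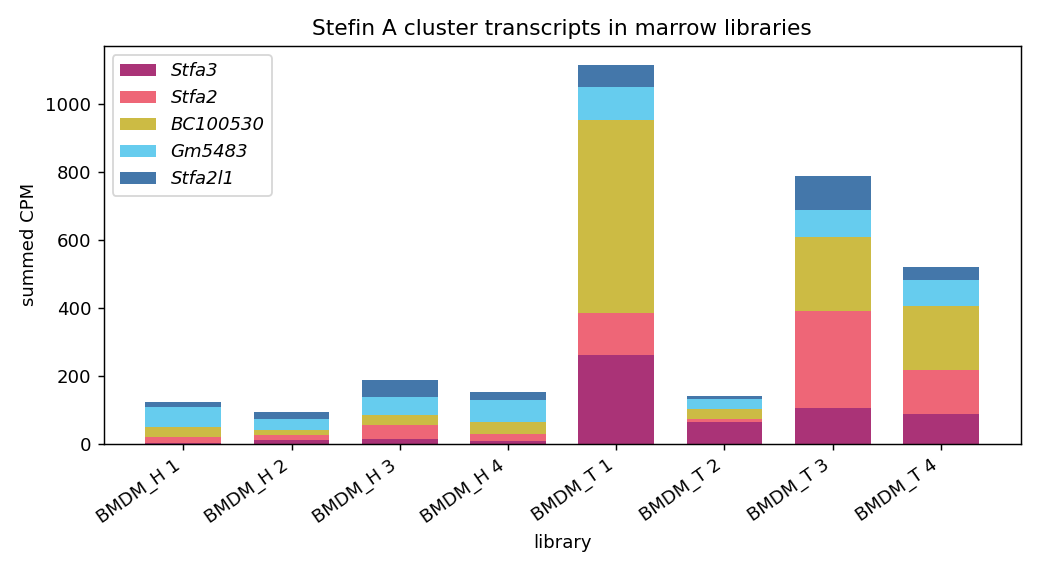
Summed CPM of 5 stefin A copies in each marrow library, with 1 color per gene and a bar height equal to their sum. The bars of BMDM_T replicates 1, 3 and 4 exceed all others, and BMDM_T replicate 2 has a bar like those of the healthy libraries with a larger Stfa3 part.

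Summed neutrophil markers overlapped between these groups, while 3 of these markers and all 4 early granule genes were higher in BMDM_T. The 12 neutrophil markers summed to 167669 to 203140 CPM in BMDM_T and 138311 to 212300 CPM in BMDM_H, and 3 of the 12 were higher and 0 lower. The 3 were Cxcr2 (log2 fold change 1.48 ± 0.16 SE, adjusted p = 9e-06), Mmp9 (1.15 ± 0.26, adjusted p = 0.0109) and Csf3r (0.83 ± 0.23, adjusted p = 0.0441). All 4 promyelocyte markers (Mpo, Elane, Prtn3 and Ctsg) were higher, with sums of 6439 to 9285 CPM against 1718 to 2524 CPM, and BMDM_T replicate 2 had the lowest sum of its group. Of 6 monocyte markers 4 were lower (1368 to 2016 against 2096 to 3726 CPM in sum), as were 4 of 8 macrophage markers, with 1 higher (1831 to 2353 against 2507 to 3432 CPM), and all 6 red cell precursor markers were lower (6.31 to 20.2 against 54.9 to 270.6 CPM), with Kel at 0 in BMDM_T. No neutrophil, promyelocyte, monocyte or macrophage marker was at 0 in either group. The part of these markers in the rise of the stefin A genes was not tested.

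Cystatin F showed a smaller difference that missed the threshold. Cst7 had 33.4, 60.5, 46.2 and 37.9 CPM in BMDM_T and 11.9, 32.2, 26.0 and 10.4 CPM in BMDM_H. All BMDM_T libraries were above all BMDM_H libraries, with the nearest values at 33.4 and 32.2 CPM. The log2 fold change was 1.09 ± 0.32 SE with an adjusted p = 0.0574, and adjusted p = 0.0219 with replicate numbers as a block. It also passed with DESeq2 (0.0427), with no low-count filter (0.0428) and without BMDM_T replicate 1 (0.0481), BMDM_H replicate 2 (0.023), TAM replicate 2 (0.0488) or TAM replicate 3 (0.0408), in a range of 0.0219 to 0.188 over all alternatives.

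Cstb had 238, 271, 236 and 225 CPM in BMDM_T and 211, 185, 188 and 151 CPM in BMDM_H, again without overlap. Its log2 fold change of 0.39 ± 0.16 SE did not pass (adjusted p = 0.195), and the 95% interval for the fold was 1.04 to 1.65. Cst3 had 1295, 1290, 1354 and 1225 CPM in BMDM_T, all inside the BMDM_H range of 1116 to 1746 CPM (adjusted p = 0.929). The 95% interval for its fold was 0.762 to 1.23. Among the cysteine proteases that these proteins inhibit, 0 of 7 tested cathepsin genes passed with edgeR, 2 were lower at an unadjusted p under 0.05, and DESeq2 called 1 lower and limma-voom 0. Ctss came nearest (263 against 462 CPM, log2 fold change -0.83 ± 0.24, adjusted p = 0.0507).

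TAM against BMDM_T compares tumor macrophages with marrow cells of tumor-bearing mice. Cst3 and Cstb rose, Cst7 fell, and the 3 stefin A copies had almost no counts in TAM. In this comparison 58.9% of all tested genes passed (30.1% higher and 28.7% lower), so calls as such are common. The stefin A copies passed the low-count filter through the marrow libraries alone, so their lower levels are given as a description, with no test.

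Cstb, the cytosolic stefin B gene, had 788, 571 and 711 CPM in TAM, and each value was more than the highest marrow library at 271 CPM. It was 2.85-fold higher than in BMDM_T (log2 fold change 1.51 ± 0.16 SE, adjusted p = 1.29e-07) and 3.72-fold higher than in BMDM_H (1.90 ± 0.17, adjusted p = 7.9e-09). Cst3, the cystatin C gene, had 2739, 2471 and 2232 CPM in TAM, and the highest marrow value was 1746 CPM in BMDM_H replicate 1. It was 1.92-fold higher than in BMDM_T (0.94 ± 0.18, adjusted p = 0.000118) and 1.86-fold higher than in BMDM_H (0.89 ± 0.18, adjusted p = 0.00023). These comparisons share the TAM libraries.

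Cst7 moved the other way. It had 9.45, 5.83 and 11.9 CPM in TAM, all below the lowest BMDM_T library at 33.4 CPM, and fell by 2.24 ± 0.34 SE on the log2 scale against BMDM_T (adjusted p = 9.52e-06). Against BMDM_H the groups overlapped, with BMDM_H replicates 1 and 4 at 11.9 and 10.4 CPM, and the log2 fold change was -1.15 ± 0.37 (adjusted p = 0.0123). That call was lost without BMDM_H replicate 2 (adjusted p = 0.133) and without TAM replicate 2 (0.0502), in a range of 0.00346 to 0.133 over all alternatives.

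Stefin A transcripts were close to absent from TAM. Stfa3 had 1, 2 and 0 counts in the 3 TAM libraries and 508 counts over BMDM_T, a scaled ratio of 312 (95% exact counting interval 106 to 1520), and 28 counts over BMDM_H, a ratio of 20.6 (6.36 to 106). Stfa2 had 1 count in TAM, found in replicate 2, and 513 over BMDM_T (ratio 947, interval 169 to 37461). Stfa2l1 had 0 counts in TAM and 196 over BMDM_T, which made it at least 120.5-fold lower in TAM, with TAM set to a floor of 3 counts in all (0.397 CPM). Against BMDM_H, with 80 counts, the same floor gave at least 58.8-fold. The lower limits of the exact 95% counting interval, as used for Stfa3 and Stfa2, were 97.1-fold and 46.8-fold. Intervals and floors cover counting error only.

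TAM against BMDM_H, which shares the TAM libraries, had Cst3 and Cstb higher and Cst7 lower, where 56.3% of all tested genes passed. The stefin A copies are described here by their counts alone, and Stfa3 did not pass the low-count filter when TAM and BMDM_H were fitted without BMDM_T. The median log2 fold change of the 6 genes is not given here, because it rests on fitted values of genes with 0 to 3 counts in TAM.

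Markers of both lineages moved with these differences. All 12 neutrophil markers were lower and all 8 macrophage markers higher in TAM against BMDM_T, and none of either list was at 0 in TAM or marrow. Epithelial markers, which 4T1 cells could supply, summed over 5 genes to 57.8 to 106 CPM in TAM and 17.2 to 39.3 CPM in BMDM_T. In BMDM_H, from mice without a tumor, they summed to 29.4 to 65.1 CPM, which overlapped TAM. Krt18 made up most of the TAM sum, with a mean of 51.9 CPM of 79.3 CPM. Endothelial markers summed over 2 genes to 56.8 to 89.5 CPM in TAM, 18.5 to 33.6 CPM in BMDM_T and 5.20 to 17.7 CPM in BMDM_H. The part of any of these cells in the levels of Cst3, Cstb, Cst7 and the stefins was not tested.

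The proteases on which these inhibitors act rose as well. All 7 tested papain-type cathepsin genes were higher in TAM than in BMDM_T, with a median log2 fold change of 3.35 against 0.03 over all genes tested, and all 7 were higher than in BMDM_H (median 3.06 against 0.02). The lysosomal proteases Ctsl (3.35 ± 0.21 SE) and Ctss (4.03 ± 0.27), the carboxypeptidase Ctsz (2.56 ± 0.20) and Ctsc, the dipeptidyl peptidase held back by cystatin F (3.61 ± 0.28), had the smallest p against BMDM_T. Lgmn, which encodes legumain, a lysosomal protease that cystatin C also inhibits, had 4569 CPM in TAM and 127 CPM in BMDM_T (5.17 ± 0.22). Of 3 tested cathepsins of the serine and aspartic classes, which are no cystatin targets, Ctse and Ctsg were lower in TAM than in BMDM_T and Ctsd had 2489 against 2335 CPM (adjusted p = 0.705). Against BMDM_H Ctse and Ctsg were lower as well and Ctsd was higher (log2 fold change 1.23 ± 0.20 SE, adjusted p = 2.16e-05). In BMDM_T against BMDM_H, Ctsd (1.14 ± 0.19) and Ctsg (1.69 ± 0.23) were higher.

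**Figure D4:**
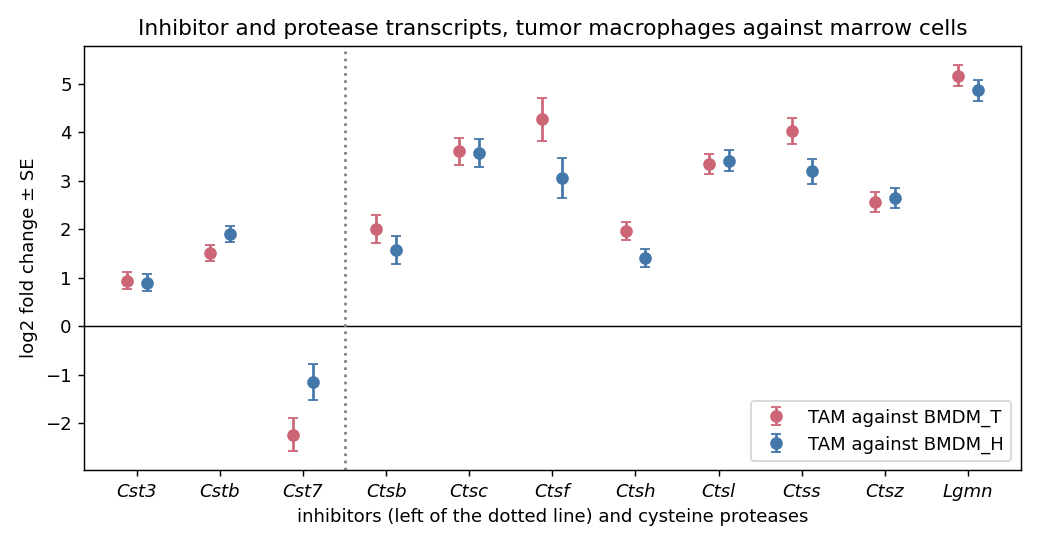
Log2 fold change with its SE of TAM against BMDM_T (red) and against BMDM_H (blue) for the inhibitor genes Cst3, Cstb and Cst7 and for 8 cysteine protease genes. All proteases lie above 0 and above Cst3, and Cst7 is the gene below 0.

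Counts within one library were also set against each other, which needs no scaling between libraries. The values are ratios of 3' end counts, not divided by length, and serve to compare groups with one another. The Cst3 count was 3.47, 4.33 and 3.14 times that of Cstb in TAM, 5.44, 4.75, 5.75 and 5.45 times in BMDM_T and 8.28, 6.23, 6.99 and 7.40 times in BMDM_H. No 2 of these groups overlapped, and BMDM_H was highest and TAM lowest. On the log2 scale the ratio was 0.43 lower in BMDM_T than in BMDM_H (2.42 ± 0.12 and 2.85 ± 0.17, SD, n = 4 each), 0.56 lower in TAM (1.85 ± 0.24, SD, n = 3) than in BMDM_T and 0.99 lower in TAM than in BMDM_H. Each of these had p = 0.0286 in a two-sided exact permutation test, the smallest p that groups of this size allow, and p = 0.0343 after Benjamini-Hochberg adjustment over the 6 ratio tests by exact permutation.

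The summed count of the 6 inhibitor genes was 0.42, 0.356 and 0.275 times that of 8 papain-type cathepsins in TAM. In BMDM_T it was 2.43, 1.51, 2.18 and 1.92 times, and in BMDM_H 1.45, 1.04, 1.58 and 1.19 times. Each TAM value was thus below each marrow value, and only such differences between groups carry meaning here. The inhibitor sum was mostly Cst3, with 4930 of 6367 counts in TAM replicate 1 and 2194 of 2515 in BMDM_H replicate 1. Legumain was not among the proteases summed. The ratio was 5.74 times lower in TAM than in BMDM_T and 3.76 times lower than in BMDM_H (exact permutation p = 0.0286 and adjusted p = 0.0343 for both). With Ctsb, Ctsl and Ctss alone as the proteases it was 8.78 and 4.62 times lower, and 1.90 times higher in BMDM_T than in BMDM_H. Between the marrow groups it was 1.52 times higher in BMDM_T, where replicate 2 overlapped BMDM_H (exact permutation p = 0.0571, unchanged by adjustment), and without that replicate the exact permutation p was 0.0286. Within replicate numbers taken as pairs, each of the 4 BMDM_T libraries was above its BMDM_H counterpart, by 0.75, 0.54, 0.47 and 0.69 on the log2 scale. An exact sign-flip permutation test of these pairs, added after the data were seen, gave p = 0.125, the smallest that 4 pairs allow. The Cst3 to Cstb ratio was lower in BMDM_T in each of the 4 pairs, and this paired exact permutation test too could not go below p = 0.125.

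**Figure D5:**
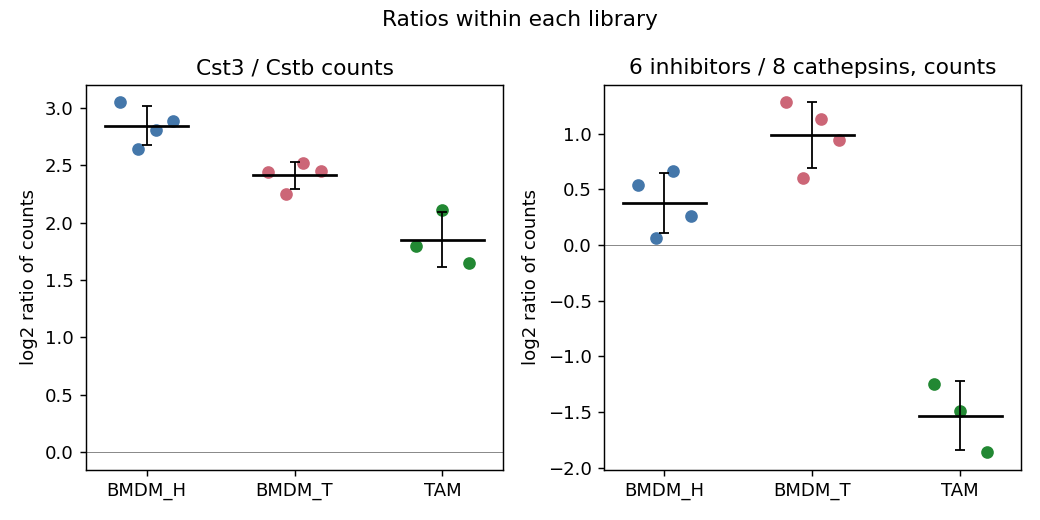
Log2 ratio of counts within each library, for Cst3 over Cstb (left) and for the 6 inhibitor genes over 8 papain-type cathepsin genes (right), with points for libraries, a line for the mean and bars for the SD. The Cst3 to Cstb ratio is highest in BMDM_H and lowest in TAM, and the inhibitor to cathepsin ratio is lowest in TAM.

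Relatives of the family and other inhibitors were listed for comparison. Camp and Ngp, neutrophil granule genes whose products carry a cystatin-like domain, did not pass between BMDM_T and BMDM_H (adjusted p = 0.293 and 0.481), with Ngp at 27421 and 33667 CPM, and both fell in TAM, where Ngp had 56.0 CPM. Of 14 tested genes listed as other inhibitors, 1 fell in BMDM_T against BMDM_H, the serpin Serpinb6a (log2 fold change -0.78 ± 0.22 SE, adjusted p = 0.0438). With edgeR 0 rose, 3 were higher at an unadjusted p under 0.05, and DESeq2 and limma-voom each called 2 higher. DESeq2 called 1 lower and limma-voom 0, so the call of Serpinb6a was lost with limma-voom. The list held Anxa1, a phospholipid-binding annexin that is no protease inhibitor. The other 13 tested genes were kept as listed, and whether each inhibits a protease was not tested. Of these 13, 4 were higher in TAM than in BMDM_T and 7 lower. Among those that were lower were Wfdc21 (log2 fold change -8.31 ± 0.28 SE) and the neutrophil serpin Serpinb1a (-8.71 ± 0.39).

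Genes with the most similar pattern over the 11 libraries were found by the root mean square (RMS) difference of centered log2(CPM + 1) profiles among 6262 genes. Members and predicted or accession-like symbols were left out of these 6262, so BC100530 and Gm5483 could not be named as nearest. All profiles share the large step between TAM and marrow, so likeness is a description. For Stfa3 the nearest were Ggt1 (RMS difference 0.53), Lipg (0.77), Prok2 (0.79) and Entpd3 (0.955), where the median over the 6262 genes was 2.63. Ggt1, a gamma-glutamyltransferase gene, had 123 CPM in BMDM_T, 7.27 in BMDM_H and 0.177 in TAM. For Stfa2 the nearest were Lin28a (1.245), Nkg7 (1.25), Prtn3 (1.25) and Lbp (1.27). Its sister copy was nearer than these, since Stfa2 and Stfa2l1 differed by 0.72, while Stfa2 and Stfa3 differed by 1.36 and Stfa2l1 and Stfa3 by 1.53. Stfa2l1 was followed by Ccnd3 (0.81), Acap1, Glipr2 and Ltb (0.89).

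Cst7 was most like Fbxl5 (RMS difference 0.46), the lectin receptor gene Clec4e (0.48), Alas1 (0.51) and Abtb2 (0.51). Cst3 was nearest to Asl (0.14), Isyna1 (0.16), Tapbp (0.17) and Snx3 (0.175), and Cstb to Mrpl52 (0.15), Lsr (0.17), Rrbp1 (0.18) and Nucb1 (0.20). Cst3 and Cstb differed from each other by 0.42.

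In order of mean level, all 3 stefin A copies and Cst7 ran from BMDM_T over BMDM_H to TAM. In the main edgeR fit the step from BMDM_T to BMDM_H passed for Stfa3 and Stfa2 and did not for Stfa2l1 and Cst7. Stfa3 entered that test through the BMDM_T libraries, where it is high. The Stfa2 groups overlapped, and its call was lost with DESeq2 and with limma-voom. For Cst3 and Cstb TAM stood first, and the order of the marrow groups behind it was not resolved.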

How the data were processed

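Counts per gene were deposited by the authors as 3' end read counts, with no normalization; per the submitters' processing notes they used bcl2fastq, STAR 2.4.2a, HTSeq and mm10. Per the labels' protocols the libraries carried barcodes and UMIs; neither labels nor notes say whether the counts are of UMIs or which strand setting was used. The table had 24421 rows, and the 14214 with no symbol held 0 counts in the 11 batch 1 libraries used. The 6 batch 2 libraries (mammary gland macrophages and 4 healthy marrow libraries) could not be matched to symbols, since their rank correlation with batch 1 over rows was -0.02 to 0 in 66 pairs, against at least 0.73 within batch 1, and were not used. Totals ran from 387940 to 3747929 counts.

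One edgeR 4.0.16 model (R 4.3.3; filterByExpr, TMM, quasi-likelihood F test) held the 3 groups, with Benjamini-Hochberg adjustment over 7518 genes at 0.05; every adjusted p in the text is from it unless another tool is named. Log2 fold changes carry model SEs. DESeq2 1.42.0 and limma 3.58.1 (voom), other scalings, no filter, a replicate block, and each library left out served as alternatives. Same-numbered BMDM_T and BMDM_H libraries deviated together weakly (r = 0.21, 0.24, 0.13 and 0.12), and TAM numbers did not pair. No r is given for differently numbered libraries, so these values do not establish pairing. What a shared number stands for is unknown. The main edgeR fit and the main permutation tests were unpaired. Replicate numbers were used only in the replicate block and in the paired ratio tests. Library pairs within a group differed by a chi-square per degree of freedom of 3.07 to 16.3, so none repeated the counts of another. This does not show that the libraries came from different mice. Ratios were also taken to Ctsb, Ctsl and Ctss alone. The paired ratio test and the inhibitor list without Anxa1 were added after the data were seen. The smallest p for 3 against 4 libraries is 0.0286, not the larger value assumed when the test was planned. The scripts were tested on simulated data.

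The members, lists and tests were chosen with earlier results of these data known. Named genes are all members, up to 4 genes of smallest p per list, and the 4 nearest profiles per member among genes with a mean of at least 10 CPM. The nearest profiles were sought without members and without predicted, accession-like or date-like symbols. One gene that this rule names is not reported here. BC100530 and Gm5483 were singled out after their values were seen. Promoters are from RefSeq, and gene positions from GENCODE on the same build.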

Additional observations from a re-analysis of the deposited data

How the results depend on the processing

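Of the member fold changes, 325 kept their side of the threshold under the alternatives, 8 gained the call and 8 lost it. This tally covers every member in every comparison. It therefore includes the stefin A copies in the TAM comparisons, which are described with no test and are no measure of robustness. The lost call of Stfa2 in TAM against BMDM_H with limma-voom is among these. The direction changed for Cst3 in BMDM_T against BMDM_H, which never passed (-0.05, and 0.12 without BMDM_H replicate 1). For Cst7 in BMDM_T against BMDM_H the log2 fold change was 1.11 with DESeq2, 1.11 with no low-count filter and 1.13 with the replicate block, each passing, and 0.83 to 1.52 with single libraries left out. For Stfa2 in the same comparison it was 2.63 with DESeq2 and 2.00 with limma-voom, neither passing, and 2.08 to 3.15 with single libraries left out. Stfa2l1 ran from 0.50 to 1.47, Cst7 in TAM against BMDM_H from -1.46 to -0.74, and Stfa2 in TAM against BMDM_H was -5.90 with limma-voom. Stfa3 in TAM against BMDM_H had no value in the fit of those 2 groups alone. The cause of these shifts was not tested.

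The genes called in BMDM_T against BMDM_H numbered 362, 468 with the replicate block, and 179 when the lowest-depth healthy libraries, 3 and 4, were dropped together. Dropping single libraries gave 238 to 409, the lowest for BMDM_H replicate 2. The block changed no other member call than that of Cst7. With total counts as the scaling the median of all genes moved from -0.015 to -0.125, and the split changed from 212 higher and 150 lower to 155 and 218.

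With single libraries left out, the log2 Cst3 to Cstb ratio differed by -0.50 to -0.36 (BMDM_T against BMDM_H), -0.69 to -0.46 (TAM against BMDM_T) and -1.12 to -0.89 (TAM against BMDM_H). With the replicate block the first of these was -0.43 and did not pass (exact permutation p = 0.125, the smallest that 4 pairs allow). The inhibitor to cathepsin ratio differed by 0.50 to 0.74, -2.66 to -2.36 and -2.05 to -1.75. Losing a library raises the smallest exact permutation p to 0.0667 or 0.1 for TAM comparisons, so lost calls there come from fewer samples. For Cst3 to Cstb in BMDM_T against BMDM_H the exact permutation p was 0.0571 without any 1 BMDM_T library and 0.0286 without any 1 BMDM_H library. In TAM, the group with the deepest libraries (1748338 to 3747929 counts), each stefin A member had 3 or fewer counts in all. The size of its ratios to marrow therefore rests on few counts.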
